A study of Mus musculus with 7 samples.

Results

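Transcripts of CD38 and of 9 further enzymes that consume, make or use NAD were followed in the brains of FAD and wild-type (WT) mice. The set was Cd38, Bst1, Sarm1, Nampt, Nmnat2, Nmnat3, Nmrk1, Nadk, Parp1 and Sirt1. It was named by symbol and not by a cutoff on a measured value, but with earlier results of these data known. The set made up 10 of the 20859 genes in the count table. Every member was found there. The study, by its title, targets CD38 in mice that model Alzheimer's disease. Its label names 3 treatments, CD38, IgG and PBS, in 2 genotypes, FAD and WT.

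NAD carries electrons in energy metabolism and is also consumed as a substrate. CD38, its relative BST1 and the axonal enzyme SARM1 cleave NAD, PARP1 uses it to build poly(ADP-ribose) at damaged DNA, and the deacetylase SIRT1 uses it to remove acetyl groups. The nicotinamide that these reactions release is recycled by NAMPT and the NMNAT enzymes, nicotinamide riboside enters through NMRK1, and NADK turns NAD into NADP. In the nervous system SARM1 is best known for driving the loss of NAD and the breakdown of injured axons, and NMNAT2 for holding SARM1 in check there. CD38 is a surface enzyme of immune cells that is also found on glia.

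The mice formed 3 groups, compared in hippocampus and in cortex. FAD mice with the treatment CD38 gave 7 hippocampi and 7 cortices, FAD mice with the treatment IgG gave 7 and 7, and WT mice with PBS gave 8 and 9. All treated FAD mice thus differ from WT mice in genotype and in treatment together, and these cannot be told apart. The transgenes, their promoter, the age of the mice and the nature and dose of what was given are not stated in the sources used here. The replicate is the mouse, and 22 mice gave both regions. In addition, 1 mouse had conflicting treatment labels, and its 2 wells were left out.

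The assay was bulk mcSCRB-seq, a 3'-tag method in which every well has its own barcode. The 45 wells used had 1270918 to 5101368 total counts, spread over 7 library pools. All 10 hippocampal markers were higher in hippocampus than in cortex, and 9 of 10 cortical markers were lower there, with Fezf2 (log2 fold change 0.41) the exception. Ribosomal RNA took over 10% of the counts in 6 wells. Microglial markers were higher in FAD mice: their summed level had medians of 1450, 1430 and 364 CPM (counts scaled to a well total of 1e6) in FAD CD38, FAD IgG and WT hippocampi, and of 1015, 1312 and 397 CPM in cortices. In bulk tissue, fewer cells of a type and less RNA per cell cannot be told apart. Levels below are CPM of a well's total, and log2 fold changes carry ± their standard error.

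The comparison of FAD CD38 with FAD IgG mice asks what the CD38 treatment did to these transcripts. No member passed an adjusted p of 0.05 in edgeR's quasi-likelihood test, among 8 tested in hippocampus (0% of all genes were called) and 9 tested in cortex (0% called). No member reached an unadjusted p of 0.05 in either region, in edgeR or in DESeq2, against 197 of 12728 genes in hippocampus and 195 of 12968 in cortex with edgeR. The median log2 fold change of the members was 0.07 in hippocampus and 0.01 in cortex, beside medians of 0.01 and -0.01 over all genes. The 95% intervals were narrowest for Nadk in hippocampus (-0.42 to 0.08) and Nampt in cortex (-0.34 to 0.23). They were widest for Sarm1, at -0.55 to 1.05 in hippocampus and -0.77 to 0.83 in cortex. In limma fits of both regions 0 of 9 members passed for the mean of the regions (0% of genes called) and 0 of 9 for the difference between regions (0% called), with no member at an unadjusted p under 0.05, against 247 and 322 of 13447 genes.

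Set against WT mice, 0 of 8 members passed in FAD CD38 hippocampus, where 5.31% of all genes were called, and 0 of 8 in FAD IgG hippocampus, where 4.9% were called. In cortex 0 of 9 passed in FAD CD38 mice (4.51% of genes called) and 0 of 9 in FAD IgG mice (3.87% called). For the mean of both regions 0 of 9 members passed in FAD CD38 mice (8.76% called) and 0 of 9 in FAD IgG mice (8.05% called). The difference between the regional effects passed for 0 of 9 members in FAD CD38 mice (0.119% called) and for 0 of 9 in FAD IgG mice (0.208% called). For the mean of both regions the members' log2 fold changes ran from -0.16 (Nmrk1) to 0.42 (Sarm1) in FAD CD38 mice and from -0.18 (Sirt1) to 0.28 (Sarm1) in FAD IgG mice. At an unadjusted p under 0.05 stood 1 of 9 members in FAD CD38 cortex (Parp1), where 2336 of 12968 genes did. So did Cd38 and Parp1 in both differences between regions, where 1570 of 13447 genes did for FAD CD38 and 1076 for FAD IgG mice. DESeq2 called 1 member, Parp1 in FAD CD38 cortex. These comparisons share the WT mice and are not independent of each other.

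By contrast, the regions of the same mice differed. Of 9 members tested with the mouse as a block, 5 were higher in hippocampus and 0 were lower. Over all 13425 genes 44.5% were called in either direction, so the share of members called is near the background. By direction, 3073 of these genes were higher and 2904 lower. Whether the shared direction of the 5 members is more than that was not tested. The members' median log2 fold change of hippocampus against cortex was 0.36, beside 0.02 over all genes. Cd38 stood highest with 1.27 ± 0.13 (adjusted p = 7.39e-11, edgeR), followed by Parp1, Nmrk1, Sarm1 and Nampt. DESeq2 also called 5 members here.

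**Figure D1:**
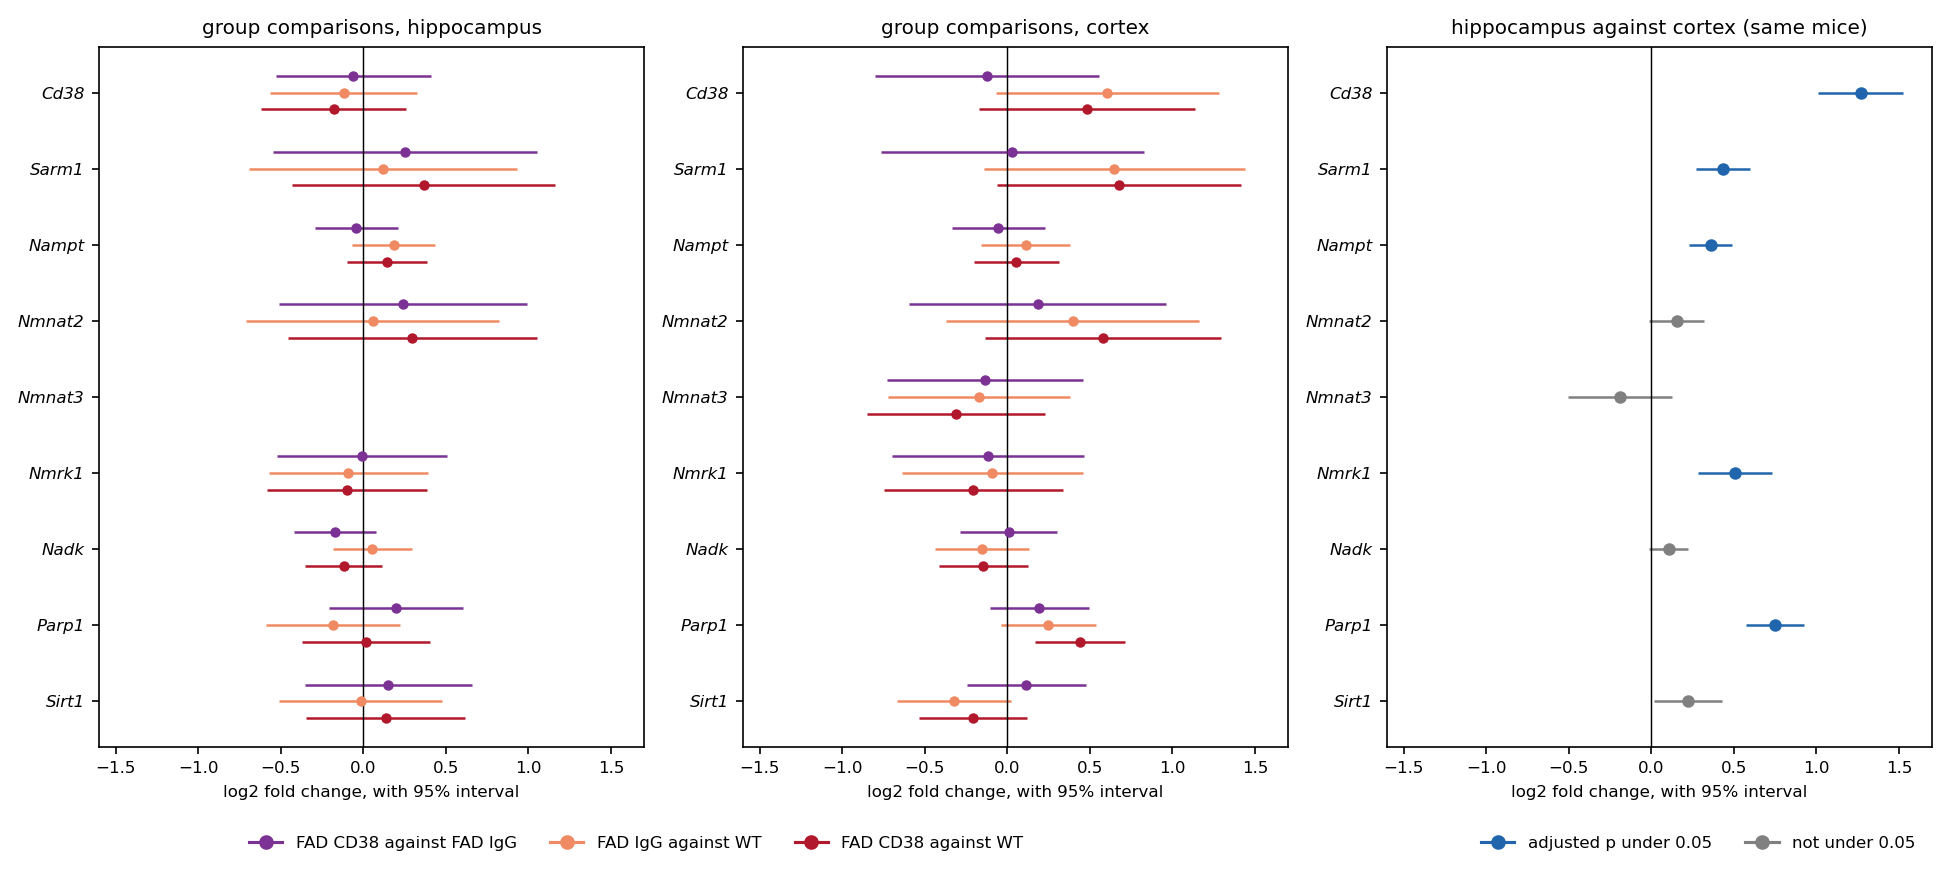
Log2 fold changes (points) with 95% intervals (lines) of 9 members for the 3 group comparisons in hippocampus and in cortex, and for hippocampus against cortex in the same mice; Nmnat3 did not pass the filter on low counts in hippocampus and has no estimate there. All group intervals cross 0 except that of Parp1 in FAD CD38 against WT cortex, while Cd38 at 1.27 lies farthest from 0 between regions.

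Cd38 encodes the ecto-enzyme that the treatment is named after. It was a rare transcript, with 11 to 39 counts per hippocampal well and 2 to 20 per cortical well, so single wells carry a large counting error. In hippocampus its lowest, median and highest levels were 4.82, 7.28 and 9.29 CPM in FAD CD38 mice, 5.96, 7.33 and 10.8 CPM in FAD IgG mice and 5.15, 7.58 and 13.6 CPM in WT mice. In cortex they were 1.51, 3.76 and 5.75 CPM in FAD CD38 mice, 2.174, 3.93 and 6.56 CPM in FAD IgG mice and 0.962, 1.91 and 3.99 CPM in WT mice. The 3 groups overlapped in both regions, and the highest well of all was a WT hippocampus. Between FAD CD38 and FAD IgG mice the log2 fold change was -0.06 (95% interval -0.53 to 0.41) in hippocampus and -0.12 (-0.80 to 0.55) in cortex. A difference in Cd38 transcript between the treatments was not detectable at this depth, and the intervals of both regions leave out a log2 fold change below -0.80.

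The regional difference of Cd38 was seen in every mouse with both regions, higher in hippocampus in 22 of 22. The mean level of these mice was 7.63 CPM in hippocampus, against 3.23 CPM in cortex. The ratio of hippocampus to cortex within a mouse had a median of 1.91 (1.28 to 4.10) in FAD CD38 mice, 1.86 (1.52 to 3.86) in FAD IgG mice and 4.05 (2.15 to 5.56) in WT mice. The ranges overlap, and the WT median lies near the highest FAD ratios. In the test of that difference the effect in hippocampus minus the effect in cortex was -0.64 ± 0.28 in FAD CD38 against WT (limma, unadjusted p = 0.0253, adjusted p = 0.356) and -0.74 ± 0.26 in FAD IgG against WT (unadjusted p = 0.0071, adjusted p = 0.388), so neither passed. The cortical side held the larger estimates, with 0.48 (-0.18 to 1.14) in FAD CD38 and 0.61 (-0.07 to 1.28) in FAD IgG mice against WT (edgeR, adjusted p = 0.451 and 0.405). The hippocampal ones were -0.18 (-0.62 to 0.26) and -0.12 (-0.57 to 0.33). Within library pools, FAD CD38 cortex lay above WT cortex in 7 of 7 pools (median log2 difference 0.43, from 0.05 to 1.02). FAD IgG cortex did so in 4 of 6 (median 0.48, from -0.41 to 1.65). In hippocampus FAD CD38 lay above WT in 3 of 7 pools and FAD IgG in 2 of 6. Without pool 6 the cortical estimate for FAD IgG against WT was 0.23, and that for FAD CD38 against FAD IgG was 0.36.

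Several marker lists differed between regions beside Cd38. Of the striatal markers tested, 8 of 8 were lower in hippocampus than in cortex, 3 of 4 choroid plexus markers were higher, and 0 of 10 microglial markers differed. Within cortex, the striatal markers had a median log2 fold change of -0.75 in FAD CD38 and -0.82 in FAD IgG mice against WT, with 0 of 9 called in each; their summed level had medians of 453, 339 and 530 CPM in FAD CD38, FAD IgG and WT cortices. The part of these lists in the Cd38 values was not tested. Lymphocytes carry CD38, and their markers did not all move alike. The summed level of the 9 T and NK cell markers in the table reached 11.1 CPM (median 8.03) in FAD CD38, 12.4 CPM (median 8.39) in FAD IgG and 6.52 CPM (median 3.68) in WT hippocampi, and its medians were 8.47, 8.82 and 9.88 CPM in cortices. In WT cortices Cd4 alone made up most of that sum, so the cortical medians do not order the other markers. Single T-cell genes were rare, and their sums are raw counts over groups of unequal size and depth. Cd3e summed to 5, 8 and 3 counts and Cd3g to 22, 32 and 6 over FAD CD38, FAD IgG and WT hippocampi. Over cortices they summed to 7, 6 and 1 and to 14, 17 and 2. Cd3d summed to 18, 30 and 3, Cd8a to 8, 10 and 2 and Nkg7 to 21, 34 and 3 counts over hippocampi. Over cortices Cd3d summed to 12, 11 and 8, Cd8a to 5, 5 and 1 and Nkg7 to 20, 24 and 5. All of these genes had higher raw sums in both FAD groups than in WT mice in both regions, which was not tested. Trac went the other way in hippocampi, with 24, 30 and 44 counts, and summed to 37, 38 and 13 in cortices. Cd4, the T-cell marker with enough counts to be tested, summed to 84, 78 and 212 counts in cortices and to 0, 1 and 4 in hippocampi. Of the 5 B and plasma cell markers in the table, Cd79a summed to 3, 3 and 0 counts in hippocampi and to 1, 4 and 4 in cortices. The summed level of these 5 markers had medians of 236, 254 and 216.4 CPM in FAD CD38, FAD IgG and WT hippocampi. In cortices its medians were 282.5, 314.9 and 248.7 CPM. In both regions most of that sum came from the marker other than Cd79a, Cd79b, Sdc1 and Ighm. The sum therefore says little about these genes and is not a measure of B cells. Ighm was abundant, with raw sums of 650, 1039 and 555 counts in hippocampi and 1829, 2211 and 2418 in cortices. WT mice gave the most wells in each region, so the raw Ighm sums do not order its levels. It was higher against WT in FAD CD38 hippocampus (0.84 ± 0.20, edgeR, adjusted p = 0.0152) and in FAD IgG hippocampus (1.10 ± 0.21, adjusted p = 0.00161), and lower in hippocampus than in cortex (-1.45 ± 0.11). The part of these markers in the Cd38 values was not tested.

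In RefSeq's annotation of GRCm38.p6 the 250 bases before the Cd38 start lie at chr5:43868559-43868808 on the plus strand. They are shown because Cd38 had the largest difference between regions among the members, with CG dinucleotides in capitals.
Cd38: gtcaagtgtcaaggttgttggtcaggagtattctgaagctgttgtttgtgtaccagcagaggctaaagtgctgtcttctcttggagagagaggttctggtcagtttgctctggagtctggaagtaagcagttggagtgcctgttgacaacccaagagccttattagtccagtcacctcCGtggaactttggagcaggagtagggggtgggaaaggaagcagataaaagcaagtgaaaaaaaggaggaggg
This window holds 1 CG dinucleotide and 48.8% G or C, where the medians over 32536 windows of this length were 6 CG dinucleotides and 52.4%. It has no GC box (GGGCGG on either strand), a motif present in 33.0% of all windows. A match, or its lack, describes the letters of the window and nothing more.

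Bst1, the close relative of Cd38 that also makes cyclic ADP-ribose, was at the limit of detection. It had a count in 7 of 22 hippocampal and 7 of 23 cortical wells, never more than 2. All 7 FAD CD38 hippocampi were at 0, which over their summed counts allows up to 0.170 CPM, while FAD IgG hippocampi held 4 counts and WT hippocampi 3. In cortex the sums were 4, 1 and 3 counts in FAD CD38, FAD IgG and WT mice. It did not pass the filter in any fit, and at this depth no difference between groups or regions was detectable.

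**Figure D2:**
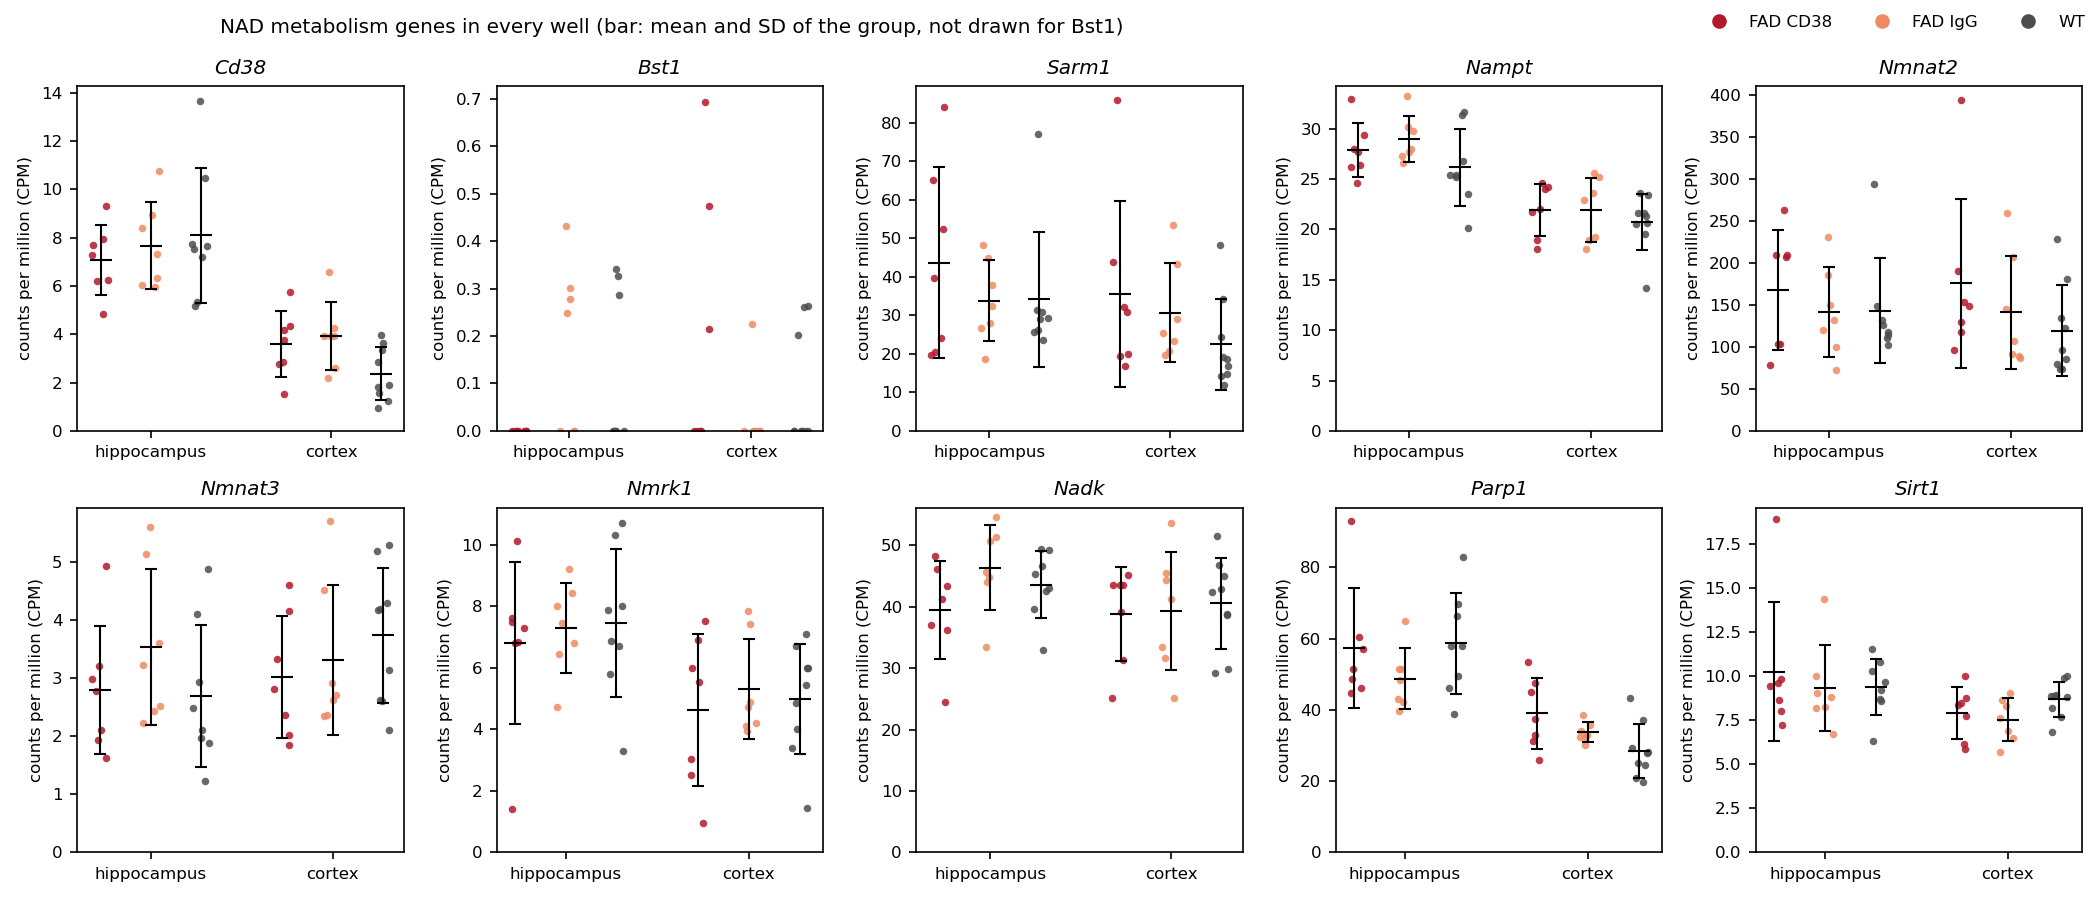
Levels of the 10 members in CPM (vertical axis) in every well, by region and group, with bars for mean and SD (none for Bst1, which has 0 to 2 counts per well). The hippocampal wells of Cd38 and Parp1 sit mostly above the cortical ones, while the 3 groups overlap in all panels; Sarm1 reached 85.8 and Nmnat2 394 CPM in 1 FAD CD38 cortex.

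Sarm1, the NAD-cleaving executioner of axon breakdown, varied widely between mice of the same group. Its hippocampal level ran from 19.8 over a median of 39.8 to 84.0 CPM in FAD CD38 mice, from 18.7 over 32.3 to 48.2 CPM in FAD IgG mice and from 23.5 over 29.1 to 77.0 CPM in WT mice. In cortex the lowest, median and highest values were 16.8, 31.0 and 85.8 CPM in FAD CD38 mice, 19.8, 25.3 and 53.5 CPM in FAD IgG mice and 11.8, 18.6 and 48.3 CPM in WT mice. The ranges of the groups overlapped in both regions. In cortex, though, the WT median of 18.6 CPM lay below the lowest FAD IgG well at 19.8 CPM. Against WT the cortical log2 fold change was 0.68 ± 0.35 in FAD CD38 mice (edgeR, adjusted p = 0.324) and 0.65 ± 0.38 in FAD IgG mice (adjusted p = 0.454), and the hippocampal ones were 0.37 ± 0.38 and 0.12 ± 0.39. Between regions Sarm1 was higher in hippocampus by 0.43 ± 0.08 (adjusted p = 2.16e-05), in 18 of 22 mice. Without the mouse as a block the estimate was 0.46 with an adjusted p of 0.0745.

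Of the genes that make NAD, Nampt, the rate-limiting enzyme of recycling, was the steadiest member. Its lowest, median and highest levels in hippocampus were 24.6, 27.7 and 32.9 CPM in FAD CD38 mice, 26.6, 28.0 and 33.3 CPM in FAD IgG mice and 20.2, 25.4 and 31.6 CPM in WT mice. In cortex they were 18.1, 22.1 and 24.6 CPM, 18.1, 23.0 and 25.6 CPM, and 14.2, 21.4 and 23.7 CPM. The coefficient of variation over wells was 11.4% in hippocampus and 12.9% in cortex, so small changes could be bounded: the intervals for FAD CD38 against FAD IgG were -0.30 to 0.21 and -0.34 to 0.23. Nampt was higher in hippocampus by 0.36 ± 0.07 (edgeR, adjusted p = 1.53e-05), in 21 of 22 mice.

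Nmnat2, which makes NAD in axons, had the same wide spread as Sarm1. The mean was 168 ± 71.0 CPM (SD, n = 7) in FAD CD38, 142 ± 53.3 CPM (n = 7) in FAD IgG and 143 ± 62.5 CPM (n = 8) in WT hippocampi. Cortices averaged 176 ± 101 CPM (n = 7), 141 ± 67.8 CPM (n = 7) and 119 ± 54.0 CPM (n = 9). No comparison of groups passed, with cortical estimates of 0.58 ± 0.34 in FAD CD38 and 0.40 ± 0.36 in FAD IgG against WT. Between regions its estimate was 0.15 ± 0.08 (edgeR, adjusted p = 0.137), higher in hippocampus in 15 of 22 mice. Nmnat3, described as a mitochondrial form, had 3 to 21 counts per well. It averaged 2.79 ± 1.11, 3.53 ± 1.35 and 2.69 ± 1.22 CPM in FAD CD38, FAD IgG and WT hippocampi (n = 7, 7 and 8) and 3.02 ± 1.06, 3.31 ± 1.29 and 3.73 ± 1.16 CPM in cortices (n = 7, 7 and 9). Its estimate between regions was -0.19 ± 0.16 (adjusted p = 0.338).

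Nmrk1, the kinase that admits nicotinamide riboside, was higher in hippocampus by 0.50 ± 0.11 (edgeR, adjusted p = 2.51e-04), in 20 of 22 mice. In hippocampus the group means were 6.80 ± 2.63, 7.30 ± 1.47 and 7.45 ± 2.40 CPM in FAD CD38, FAD IgG and WT mice (SD, n = 7, 7 and 8). Cortical means were 4.63 ± 2.48, 5.30 ± 1.63 and 4.99 ± 1.80 CPM (n = 7, 7 and 9). The groups overlapped, and none of their comparisons passed. Nadk, which phosphorylates NAD to NADP, did not pass between regions (0.10 ± 0.06, adjusted p = 0.145). Its means were 39.5 ± 7.96, 46.4 ± 6.92 and 43.6 ± 5.44 CPM in hippocampus and 38.7 ± 7.63, 39.3 ± 9.67 and 40.5 ± 7.39 CPM in cortex, for FAD CD38, FAD IgG and WT mice. For FAD CD38 against FAD IgG its interval was -0.42 to 0.08 in hippocampus and -0.29 to 0.30 in cortex.

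Parp1, the main DNA-damage-activated poly(ADP-ribose) polymerase, was the member nearest to a call between groups. In cortex its lowest, median and highest levels were 25.9, 37.6 and 53.6 CPM in FAD CD38 mice, 30.1, 32.9 and 38.5 CPM in FAD IgG mice and 19.7, 27.9 and 43.4 CPM in WT mice. The ranges overlapped, with both FAD medians above that of WT. The log2 fold change was 0.44 ± 0.13 in FAD CD38 against WT (edgeR, unadjusted p = 0.00268, adjusted p = 0.0563) and 0.25 ± 0.14 in FAD IgG against WT (adjusted p = 0.431). Within pools FAD CD38 cortex was above WT cortex in 6 of 7 (median 0.38, from -0.25 to 0.92). The side of the threshold depended on the setting: DESeq2 gave an adjusted p of 0.0489, the ribosomal RNA share as a covariate 0.0226, and leaving out pool 6 gave 0.0317. Leaving out both mice that stood apart, an alternative chosen after seeing the data, gave a log2 fold change of 0.32 with an adjusted p of 0.266. FAD CD38 against FAD IgG was 0.19 (-0.10 to 0.49) in cortex and 0.20 (-0.21 to 0.60) in hippocampus.

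In hippocampus the Parp1 levels were 44.7, 51.4 and 93.1 CPM in FAD CD38, 39.7, 48.4 and 65.0 CPM in FAD IgG and 38.9, 57.9 and 83.0 CPM in WT mice (lowest, median and highest). Here the ranges overlapped and both FAD medians lay below that of WT. The difference of the regional effects was -0.50 ± 0.19 in FAD CD38 against WT (limma, adjusted p = 0.302) and -0.56 ± 0.19 in FAD IgG against WT (adjusted p = 0.341), and did not pass. With sample quality weights in voom the adjusted p was 0.0311 and 0.0137. Between regions Parp1 was higher in hippocampus by 0.75 ± 0.09 (edgeR, adjusted p = 4.66e-09), in 21 of 22 mice. The ratio within a mouse had a median of 1.36 in FAD CD38, 1.42 in FAD IgG and 2.33 in WT mice.

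Sirt1, the NAD-dependent deacetylase, averaged 10.3 ± 3.93, 9.34 ± 2.43 and 9.38 ± 1.61 CPM in FAD CD38, FAD IgG and WT hippocampi (SD, n = 7, 7 and 8). Cortical means were 7.92 ± 1.47, 7.53 ± 1.22 and 8.68 ± 0.995 CPM (n = 7, 7 and 9). The cortical estimate against WT was -0.21 (-0.54 to 0.12) in FAD CD38 and -0.32 (-0.67 to 0.02) in FAD IgG mice (edgeR, adjusted p = 0.528 and 0.375). Between regions it was 0.22 ± 0.10 with an adjusted p of 0.0754, and 14 of 22 mice were higher in hippocampus.

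**Figure D3:**
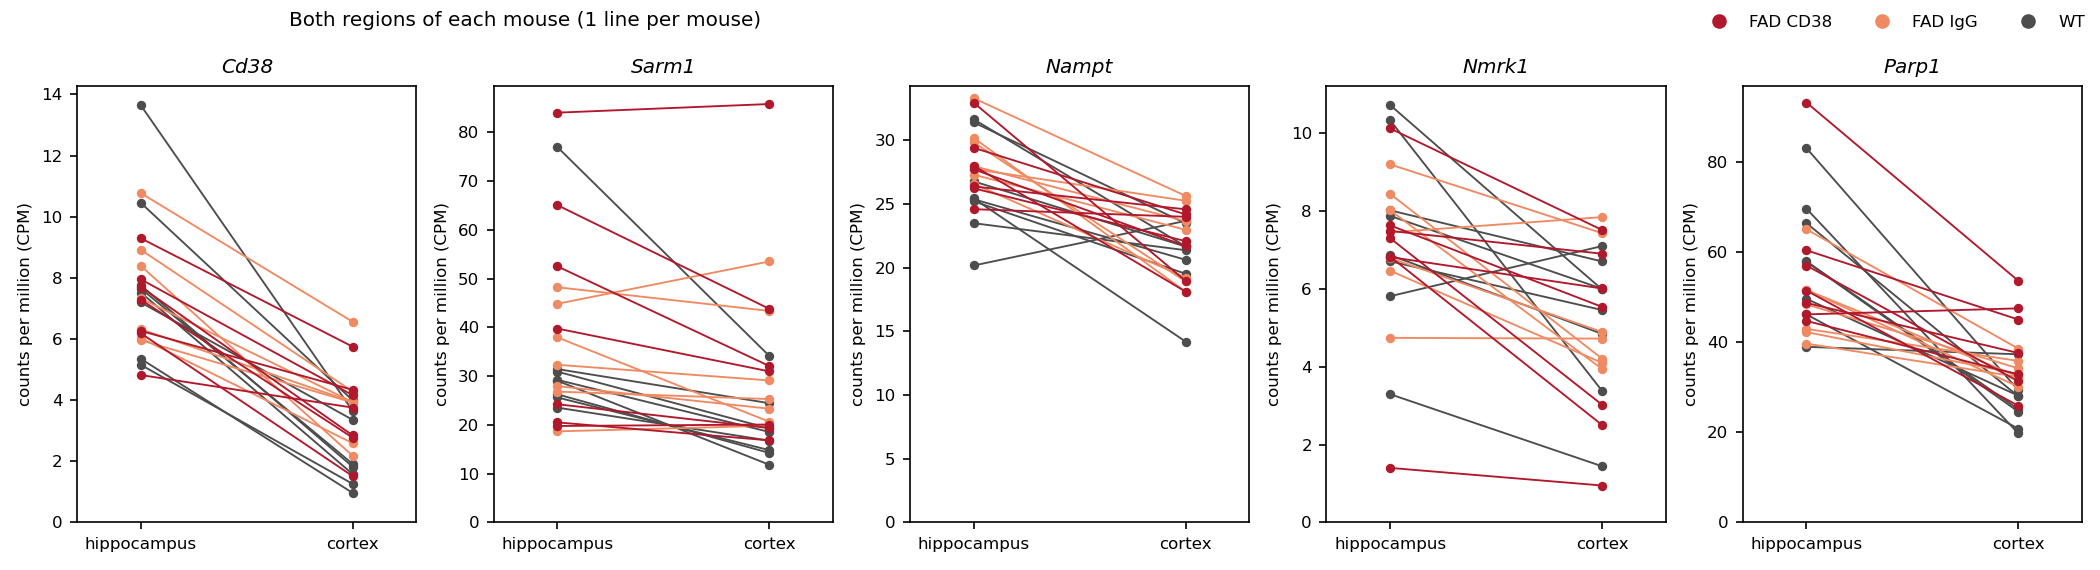
Levels in CPM (vertical axis) of the 5 members that were higher in hippocampus, with both regions of each of 22 mice joined by a line coloured by group. All 22 lines fall towards cortex for Cd38, 21 for Nampt and Parp1, 20 for Nmrk1 and 18 for Sarm1.

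Some members varied together from mouse to mouse. Across hippocampi the log2 levels of Sarm1 and Nmnat2 were correlated with Pearson's r = 0.925 and Spearman's rho = 0.921 (n = 22 wells, permutation p = 1e-05 for each, the smallest that 100000 permutations can give). Across cortices r was 0.951 and rho 0.914 (n = 23, permutation p = 1e-05 for each). Adjusted over the 99 relations computed, p was 0.000165 for Pearson's r and 0.000495 for rho, in both regions. Without the 2 wells farthest from the median of Sarm1, r was 0.941 and 0.914, and after removing pool means it was 0.957 and 0.948. The relation was there in each group alone, with r from 0.916 to 0.952 in hippocampus and from 0.937 to 0.980 in cortex. Mice high in 1 region were also high in the other, with r = 0.808 for Sarm1 and 0.694 for Nmnat2 over 22 mice (permutation test, adjusted p = 0.000165 and 0.00317).

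Nadk ran the other way. Its correlation with Sarm1 was -0.820 in hippocampus and -0.811 in cortex (rho -0.660 and -0.680, permutation test, adjusted p = 0.000165 for each r). Its r with Sarm1 was -0.692 and -0.695 without the 2 farthest wells, and -0.828 and -0.786 within pools. Nmrk1 also went against Sarm1, with r = -0.642 in hippocampus and -0.582 in cortex (permutation test, adjusted p = 0.00975 and 0.0181). That relation rested on few wells: without the 2 farthest, r was -0.215 and -0.408, and rho did not pass (adjusted p = 0.161 and 0.199). Levels are shares of 1 total per well, so they are not free of each other.

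The share of ribosomal RNA moved with these genes. It correlated with Sarm1 at r = 0.722 in hippocampus and 0.522 in cortex (permutation test, adjusted p = 0.00317 and 0.043), and with Nadk at -0.668 and -0.600 (adjusted p = 0.0131 for each). In cortex rho did not pass, at 0.432 for Sarm1 and -0.433 for Nadk (permutation test, adjusted p = 0.185 for each). Without the 2 farthest wells r there was 0.417 and -0.476. At equal ribosomal RNA share and within pools, r of Sarm1 with Nmnat2 was 0.851 in hippocampus and 0.926 in cortex, and that of Sarm1 with Nadk was -0.589 and -0.659. Of 12467 genes, those most like Sarm1 by the mean of the r values in both regions were Hnrnpa0 (0.943), Nmnat2 (0.938) and Ppm1h (0.935). For Nmnat2 they included Rab11fip4 (0.942) and Sarm1 (0.938), and for Nadk they were Scap (0.835), Serinc1 (0.824) and Cbfb (0.815). For Nmrk1 they were Mpzl1 (0.793), Vps26c (0.790) and Scap (0.786), and for Parp1 Zmynd8 (0.761), Nos1ap (0.754) and Gripap1 (0.738). For Cd38 the values were weak and the counts sparse, with Gpt2 (0.527) first, which is no finding.

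**Figure D4:**
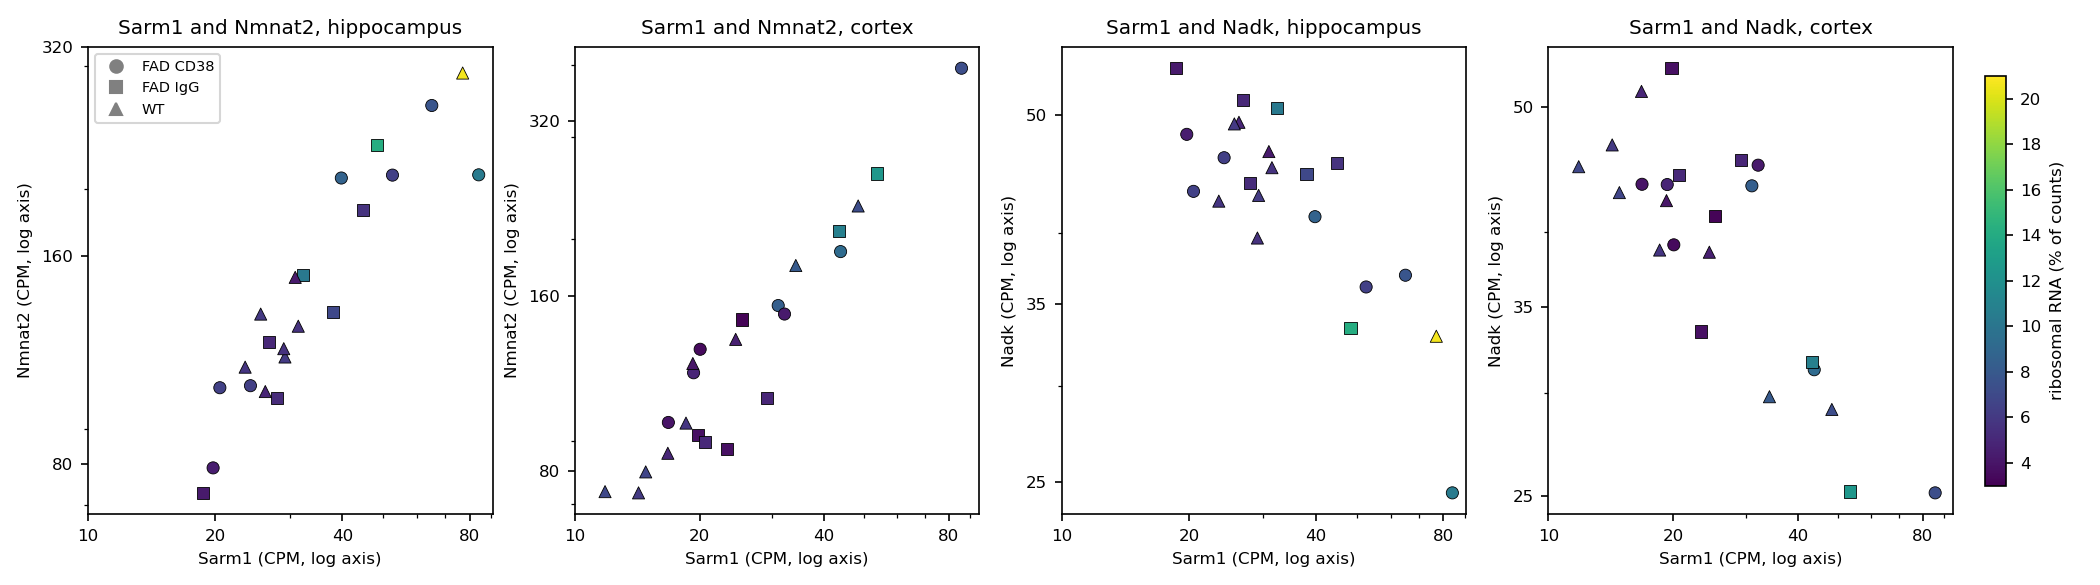
Sarm1 (horizontal axis) against Nmnat2 or Nadk (vertical axis) in every well, in CPM on log axes; shapes give the group and colours the ribosomal RNA share. Wells high in Sarm1 were high in Nmnat2 (r = 0.925 in hippocampus, 0.951 in cortex) and low in Nadk (-0.820 and -0.811).

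The 250 bases before the starts of Sarm1 and Nmnat2 are shown because these genes varied together. By RefSeq's annotation of GRCm38.p6 they lie at chr11:78497755-78498004 on the minus strand and chr1:152954851-152955100 on the plus strand, with CG dinucleotides in capitals.
Sarm1: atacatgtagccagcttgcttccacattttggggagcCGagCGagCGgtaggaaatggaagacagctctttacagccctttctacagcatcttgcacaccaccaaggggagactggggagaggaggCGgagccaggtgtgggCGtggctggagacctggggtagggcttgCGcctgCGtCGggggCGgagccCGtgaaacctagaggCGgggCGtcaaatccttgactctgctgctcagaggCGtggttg
Nmnat2: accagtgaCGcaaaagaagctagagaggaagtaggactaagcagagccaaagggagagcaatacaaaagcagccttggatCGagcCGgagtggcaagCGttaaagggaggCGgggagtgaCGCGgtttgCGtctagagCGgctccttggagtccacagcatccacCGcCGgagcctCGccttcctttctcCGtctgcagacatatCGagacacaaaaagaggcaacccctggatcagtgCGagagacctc
The windows hold 13 and 15 CG dinucleotides and 60.8% and 56.4% G or C. Of the motifs searched on both strands, the letters TGACG occur in the Sarm1 window 1 time and in the Nmnat2 window 2 times, and in 17.9% of all 32536 windows. The GC box GGGCGG occurs 1 time for Sarm1 and 0 times for Nmnat2.

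Beyond the members, a wider list of NAD genes held 68 further genes, of which 61 were in the table. Against WT, Naprt, which starts NAD synthesis from nicotinic acid, rose in FAD cortex, by 1.07 ± 0.20 in FAD CD38 and 0.95 ± 0.21 in FAD IgG mice (edgeR, adjusted p = 9.04e-04 and 0.00607). Its cortical mean was 13.8 ± 4.54, 12.1 ± 2.76 and 6.43 ± 1.96 CPM in FAD CD38, FAD IgG and WT mice (SD, n = 7, 7 and 9). In hippocampus the log2 fold change was 0.65 ± 0.19 in FAD CD38 mice, which did not pass (adjusted p = 0.0595), and 0.73 ± 0.20 in FAD IgG mice, which did (adjusted p = 0.0335). Within pools FAD cortex was above WT cortex in 7 of 7 pools for FAD CD38 and 6 of 6 for FAD IgG.

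Parp3, a DNA-repair member of the PARP family, rose in both regions of both FAD groups. The log2 fold changes against WT were 1.38 ± 0.35 in FAD CD38 and 1.52 ± 0.35 in FAD IgG hippocampus (edgeR, adjusted p = 0.0209 and 0.00908), and 1.23 ± 0.26 and 1.25 ± 0.27 in cortex (adjusted p = 0.00327 and 0.00433). The levels were low, with hippocampal means of 3.52 ± 0.76, 3.88 ± 1.76 and 1.39 ± 0.69 CPM in FAD CD38, FAD IgG and WT mice (SD, n = 7, 7 and 8). Parp12, an interferon-induced family member, rose in FAD IgG mice by 0.83 ± 0.19 in hippocampus and 0.67 ± 0.17 in cortex (adjusted p = 0.00947 and 0.0249). Parp9, also interferon-induced, rose in FAD IgG hippocampus by 1.46 ± 0.38 (adjusted p = 0.0268). Neither was called in a single region of FAD CD38 mice. Within pools, FAD CD38 lay above WT for Parp12 in 6 of 7 in hippocampus (median 0.40) and 6 of 7 in cortex (median 0.27). For Parp9 that was so in 4 of 7 pools in hippocampus (median 0.13) and 6 of 7 in cortex (median 0.85). Parp6, another family member, fell by 0.35 on the log2 scale in FAD CD38 cortex (adjusted p = 0.0426), where FAD IgG cortex had -0.27 (adjusted p = 0.194). For the mean of both regions Parp6 fell in both, by 0.35 in FAD CD38 mice (limma, adjusted p = 0.00595) and by 0.28 in FAD IgG mice (adjusted p = 0.0465).

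Of all NAD genes tested, members included, 2 rose and 1 fell among 51 in FAD CD38 cortex and 3 rose among 51 in FAD IgG cortex, against WT, where 4.51% and 3.87% of all genes were called. In hippocampus 1 of 53 rose in FAD CD38 and 4 of 53 in FAD IgG mice, where 5.31% and 4.9% of all genes were called. Counts this small are near these shares and show nothing particular to NAD genes. Sirt2 in FAD CD38 hippocampus had 0.30 (adjusted p = 0.0789). For the mean of both regions 4 of 56 rose and 1 fell in FAD CD38 mice and 5 rose and 1 fell in FAD IgG mice (8.76% and 8.05% of all genes called). Naprt (0.90 in FAD CD38, 0.86 in FAD IgG), Parp3 (1.27 and 1.33) and Parp9 (0.97 and 1.37) rose in both, and Parp12 (0.73) in FAD IgG mice. The limma fit also called Sirt2, a deacetylase abundant in oligodendrocytes, at 0.28 ± 0.08 in each FAD group (adjusted p = 0.0189 for FAD CD38, 0.0253 for FAD IgG). Microglial markers moved the same way: against WT, 8 of 10 were higher in FAD CD38 and 8 of 10 in FAD IgG cortex, with 8 and 9 of 10 in hippocampus. Their part in the values of Naprt and the PARP genes was not tested. Several of these calls did not hold under other settings. Parp12 in FAD IgG cortex missed the threshold with DESeq2 (adjusted p = 0.0973), without a filter (0.0632), with only the 2 groups compared (0.078) and without wells of over 10% ribosomal RNA (0.0719). Naprt in FAD IgG hippocampus missed with only the 2 groups compared (0.111). Parp6 in FAD CD38 cortex missed without a filter (0.0825), without pool in the model (0.051) and without both mice that stood apart (0.157). Sirt2 missed without a filter in FAD CD38 (0.0731) and FAD IgG mice (0.086). Leaving out 1 pool ended calls too. For Parp12 in FAD IgG mice that was so for 5 pools in cortex (adjusted p 0.06 to 0.111) and for pool 5 in hippocampus (0.0827). Parp3 missed in FAD CD38 hippocampus without pool 6, 7 or 11 (0.0691 to 0.0883) and in FAD IgG hippocampus without pool 9 (0.0557). Naprt missed in FAD IgG hippocampus without pool 5, 6, 9 or 10 (0.0578 to 0.193), Parp9 there without pool 5, 6, 10 or 11 (0.0672 to 0.158), and Parp6 in FAD CD38 cortex without each of 6 pools (0.0581 to 0.164). For the mean of both regions Sirt2 missed without pool 6, 9 or 10 in FAD CD38 mice (0.0595 to 0.0929) and without pool 5, 6, 9 or 11 in FAD IgG mice (0.0665 to 0.0942). For that mean Parp9 missed in FAD CD38 mice without pool 5, 8 or 10 (0.0729 to 0.119), and Parp6 in FAD CD38 mice without pool 6 (0.0881) and in FAD IgG mice without each of 5 pools (0.0847 to 0.235).

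**Figure D5:**
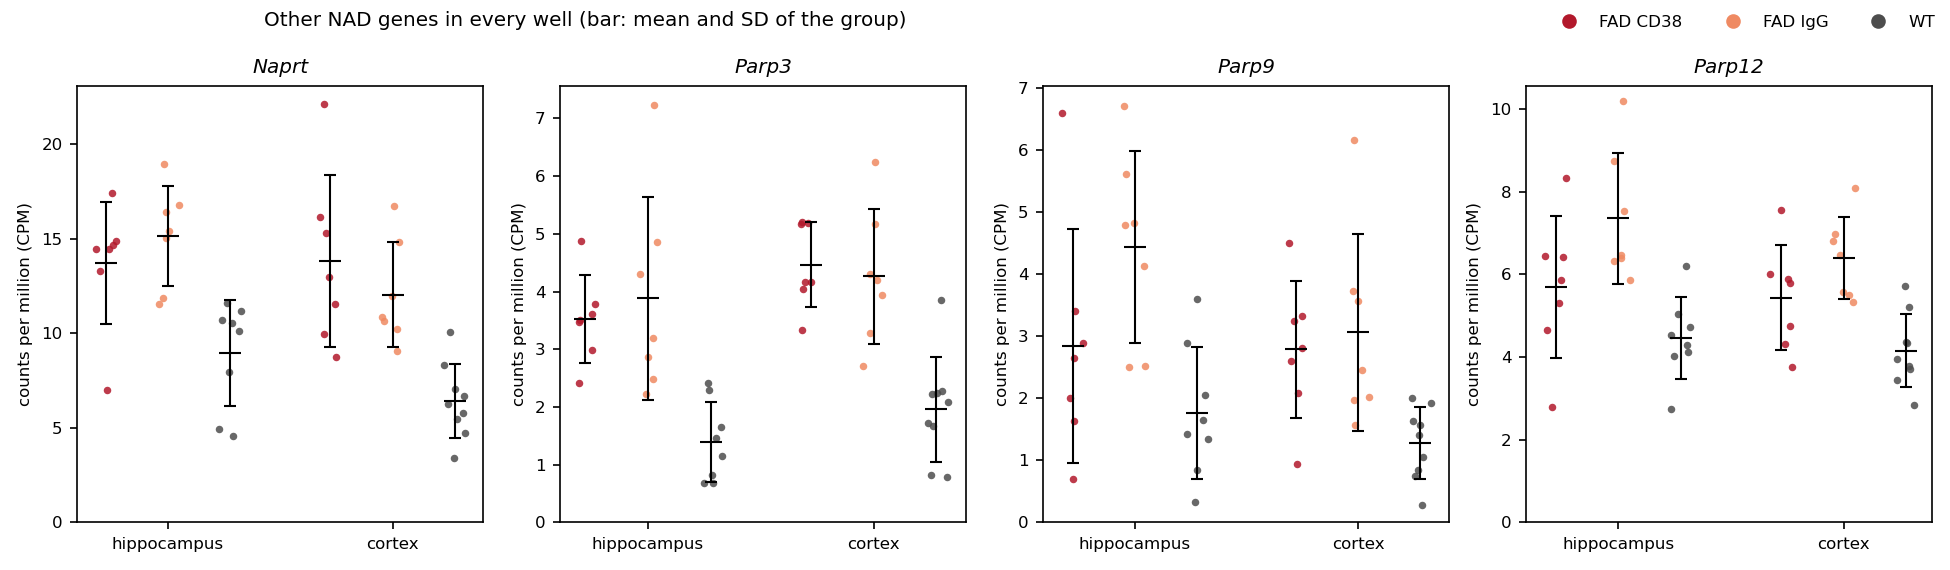
Levels in CPM (vertical axis) of Naprt, Parp3, Parp9 and Parp12 in every well, by region and group, with bars for mean and SD. For Naprt in cortex the means were 13.8, 12.1 and 6.43 CPM in FAD CD38, FAD IgG and WT mice, and for Parp3 in hippocampus 3.52, 3.88 and 1.39 CPM.

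Between FAD CD38 and FAD IgG mice 0 of the 51 NAD genes passed in cortex and 0 of 53 in hippocampus. The smallest p values outside the members belonged in cortex to Art3 (-0.83, 95% interval -1.35 to -0.30, unadjusted p = 0.00334), Parp12 (-0.32, -0.69 to 0.04) and Nudt13 (0.26, -0.10 to 0.62). In hippocampus they belonged to Parp12 (-0.42, -0.82 to -0.01, unadjusted p = 0.0443), Parp9 (-0.70, -1.50 to 0.11) and Nudt9 (0.19, -0.12 to 0.50). For the mean of both regions they belonged to Parp12 (-0.37, -0.65 to -0.09, unadjusted p = 0.0109), Art3 (-0.45, -0.84 to -0.06) and Ryr3 (0.45, -0.12 to 1.02), and for the difference between regions to Nmnat1 (-0.55), Nudt13 (-0.41) and Art3 (0.58). All had an adjusted p of 1 in edgeR or limma. Against WT, 0 of 56 passed for the difference between regions, the smallest p belonging to Parp8 (0.52), Noct (-0.43) and Mcoln1 (-0.35) in FAD CD38 mice and to Nnt (0.48), Noct (-0.40) and Nadk2 (0.32) in FAD IgG mice.

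Between regions, 17 of 56 NAD genes were higher and 9 lower in hippocampus than in cortex, members included, with a median of 0.11. This is about the share over all genes, of which 44.5% were called. Tdo2, an entry enzyme of the kynurenine route from tryptophan to NAD, stood at 2.47 ± 0.21 (edgeR, adjusted p = 8.03e-13), and the transporter gene Slc29a4 at 1.72 ± 0.11. Nnmt, which methylates nicotinamide, was higher by 1.45 ± 0.19, the calcium channel gene Ryr3 by 1.37 ± 0.15 and Parp8 by 1.05 ± 0.10. Of smaller size were Tnks2, Parg, Ryr2, Lsm12, Tnks, Macrod1 and Nadk2, at 0.22 to 0.54. Lower in hippocampus were Slc29a1 (-0.43), Trpm2 (-0.35), a channel opened by ADP-ribose, Mcoln1 (-0.34), Parp6 (-0.32), Sirt3 (-0.29), Nmnat1 (-0.28), Slc29a2 (-0.28), Adprh (-0.16) and Sirt7 (-0.12). The calls of Tnks, Macrod1, Nadk2, Parg, Nmnat1, Slc29a2, Adprh and Sirt7 were lost when 1 or another pool was left out, with adjusted p values of up to 0.193. Without the mouse block Lsm12 (0.198), Tnks (0.088) and Sirt7 (0.122) were not called.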

How the data were processed

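Bulk mcSCRB-seq libraries of hippocampus and cortex were sequenced in 7 pools. The authors deposited raw read counts per gene and well, made with bcl2fastq 2.17 and STAR 2.5.3a per the submitters' processing notes. The genome build, annotation, counting tool and handling of molecular identifiers are not stated in the sources used here. Because each GEO sample is a pool of mice, wells were assigned to mouse, region, genotype and treatment through the deposited sample sheet. The 2 wells of 1 mouse whose name and description disagree on treatment were left out.

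Counts of 3' tags do not scale with transcript length, and no order of levels between genes is given. CPM is a gene's count as a share of the well's total, scaled to 1e6. Totals of 1270918 to 5101368 limit the precision of members with few counts. Each region was fitted with edgeR 4.0.16 under R 4.3.3, using its quasi-likelihood test, TMM scaling and pool as a covariate, on genes that filterByExpr kept at its settings of 10 counts and a total of 15. Means of and differences between regions used limma 3.58.1 (voom, mouse as random effect, consensus correlation 0.256). Hippocampus against cortex used edgeR with the mouse as a block. P values were adjusted by Benjamini-Hochberg over all genes tested, with a threshold of 0.05. DESeq2 1.42.0, RLE factors, other filters, models without pool, with the ribosomal RNA share, with quality weights, and each pool left out were the alternatives. The code was tested on simulated data.

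The members and lists were chosen with earlier results of these data known. All 10 members are described, with counts or ranges where a comparison called none. Other NAD genes are named where called, or the 3 of smallest p where fewer than 3 were called. Likeness is the mean of the Pearson r of log2 CPM within each region, and is given for the members where it was not weak, and for Cd38. Of the 3 most alike genes of Nmnat2, 1 is not reported here. Of 148 pairs of replicates, the lowest chi-square per degree of freedom was 2.55, and none was counted as a repeat.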

Additional observations from a re-analysis of the deposited data

Results flagged for a closer look

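Within groups of mice, 54 sets of member levels were searched for a well far from the others by Dixon's test, and 8 were found. The test flags about 1 in 20 sets when they are independent and normally distributed. These sets share wells and hold members that varied together, so the 8 cannot be set against that rate. Most of the 8 came from 1 mouse, FAD CD38 replicate 3 of pool 7. In its hippocampus Nmrk1 was lowest of the group at 1.40 CPM (next 6.81), Parp1 highest at 93.1 CPM (next 60.3) and Sirt1 highest at 18.9 CPM (next 9.84). In its cortex Sarm1 reached 85.8 CPM (next 43.8) and Nmnat2 394 CPM (next 191). The hippocampus of WT replicate 6, in pool 8, had the highest Sarm1 of its group at 77.0 CPM (next 31.4) and the highest Nmnat2 at 294 CPM (next 149). Nampt was lowest in the cortex of WT replicate 3, in pool 7, at 14.2 CPM (next 19.5). Ribosomal RNA took 10.4% of the counts in the FAD CD38 hippocampus and 20.7% in the WT hippocampus. In the cortices of FAD CD38 replicate 3 and WT replicate 3 ribosomal RNA took 7.29% and 5.78%. Its part in these values was not tested.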

How the results depend on the processing

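Of 1622 member values recomputed under the alternatives, 1612 kept their direction where called and their side of the threshold, 1 lost its call, 9 gained one and 0 called values changed sign. Among those 1612 were 113 uncalled values that took the other sign. The largest of them was 0.40 in size in the main fit. The number of members called in FAD CD38 against WT cortex was 0 and became 1, Parp1, with DESeq2, with only the 2 groups compared, with quality weights, with the ribosomal RNA share as covariate and without wells of over 10% ribosomal RNA, and it ranged from 0 to 1 when each pool was left out. With quality weights it also became 1 for the difference between regions in FAD IgG against WT (Parp1) and in FAD CD38 against WT (Parp1), and for the mean of both regions in FAD CD38 against WT (Sarm1). The cause was not tested. Hippocampus against cortex gave 5 members, or 4 without the mouse block. Of 60 group levels recomputed with TMM factors, 0 moved by more than 1 SD. Few counts limit Cd38, Nmnat3 and above all Bst1. Hippocampus against cortex was paired by mouse, and groups were compared with pool as a covariate. Between groups of mice no paired analysis was possible because no label pairs single mice of different groups.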

Other observations

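Among the other NAD genes, 1 of 6 kynurenine-route genes in the table had enough counts to be tested against WT, Tdo2, in hippocampus and in the fits of both regions. Its log2 fold change in hippocampus was -0.33 (-1.28 to 0.63) in FAD CD38 and -0.27 (-1.20 to 0.66) in FAD IgG mice, and did not pass (edgeR, adjusted p = 0.746 and 0.828). The following were not tested and were picked after their values were seen. Their sums are raw counts over groups of unequal size and depth. Kynu, which encodes kynureninase, summed to 3, 15 and 0 counts over FAD CD38, FAD IgG and WT hippocampi and to 10, 18 and 1 over cortices. Haao, a later enzyme of the route that leads to quinolinate, summed to 14, 25 and 4 counts in hippocampi and to 19, 19 and 10 in cortices. Ido1, an entry enzyme of the route, summed to 36, 23 and 94 counts in FAD CD38, FAD IgG and WT cortices. Striatal markers were also highest by median in WT cortices, and their part in the Ido1 counts was not tested.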
